A study of Bos taurus and Capra hircus with 9 samples.

Results

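miR-26a and miR-26b were followed in the miRNomes of milk-derived extracellular vesicles (EVs), small membrane-bound particles shed into milk by cells. Members were chosen by name alone, as entries called miR-26a or miR-26b with or without an arm suffix, and 2 of the 296 listed bovine entries met this rule, bta-miR-26a and bta-miR-26b. Small RNAs were sequenced from 9 animals with 1 library per animal. The cows (Bos taurus, n = 5) were Holstein Friesian at 30 ± 7 days postpartum and are named 1, 2, 3, 20 and 62. The goats (Capra hircus, n = 4) were primiparous Alpine at 26 ± 9 days postpartum and are named 17, 44, 79 and 127. A further goat sample did not pass RNA quality control, by the authors' account, and has no library here. No animal was treated. Cells and fat had been removed from all milks, and vesicles were purified on a sucrose gradient. Each species came from its own farm, and goat milk alone received a second acetic acid step, so species, farm, breed and this step cannot be told apart. Values are TPM, the authors' tag counts scaled to the size of each library, and tags of both species were counted on bovine sequences.

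miR-26 miRNAs are conserved across vertebrates and are hosted by genes of the CTDSP family, which encode small phosphatases. They are known for restraining the histone methyltransferase EZH2 and cell cycle genes, and are widely expressed in differentiated tissues. In goat mammary epithelial cells they have been described as promoting triacylglycerol synthesis, with INSIG1, a brake on lipogenic transcription, as a target.

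Both mature sequences are shown as listed in the deposited table, because their shared seed and their few differing bases define the pair. Capitals mark the seed, bases 2 to 8 from the 5′ end.
miR-26a: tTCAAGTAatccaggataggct
miR-26b: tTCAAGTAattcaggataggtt
Both were 22 bases long, and no other listed entry had the same bases 2 to 8. Here capitals mark the bases at which the members differ.
miR-26a: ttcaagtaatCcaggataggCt
miR-26b: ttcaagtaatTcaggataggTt
Counted from the 5′ end, the change from miR-26a to miR-26b is C11T and C21T. The first 10 bases are thus identical, and 20 of 22 bases match in all. Among the 138 other entries of this length, the closest to either member was miR-374a, with 10 mismatches. GC content was 40.9% in miR-26a and 31.8% in miR-26b, against a median of 45.5% over all entries. Only 18 entries had a lower GC content than miR-26b.

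RefSeq for the bovine ARS-UCD2.0 assembly places 2 genes for miR-26a, MIR26A-1 within the span of CTDSPL and MIR26A-2 within that of CTDSP2. The gene of miR-26b, MIR26B, lies within the span of CTDSP1. The next protein-coding gene was of the villin family of actin-binding proteins at each of these loci (VILL, AVIL and VIL1). Because both miR-26a genes are annotated for 1 mature entry, its level cannot be divided between them. The interval of MIR26A-1 is also annotated as MIR26C, which was not analysed here.

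miR-26a was among the most abundant miRNAs of every library, in goats and cows alike. It stood at 26484, 14473, 23418 and 15987 TPM in goats 17, 44, 79 and 127. In cows 1, 2, 3, 20 and 62 it stood at 16615, 24566, 16403, 15192 and 22108 TPM. The ranges overlapped almost entirely, and the lowest and the highest library were both from goats. The means were 18977 ± 4110 TPM in cows (SD, n = 5) and 20090 ± 5783 TPM in goats (SD, n = 4). The fold change on the log2(TPM + 1) scale, goat minus cow, was 0.06 with a standard error of 0.26 and a 95% interval from -0.50 to 0.62 (adjusted p = 0.837, limma over all tested entries).

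miR-26b was about an order of magnitude less abundant. Its levels were 1603, 1046, 1805 and 1207 TPM in goats 17, 44, 79 and 127, and 1920, 2462, 1552, 1589 and 2284 TPM in cows 1, 2, 3, 20 and 62. Goats 44 and 127 were below every cow, while goats 17 and 79 were within the range of the cows. The means were 1961 ± 407 TPM in cows (SD, n = 5) and 1415 ± 350 TPM in goats (SD, n = 4). The log2 fold change was -0.48 (standard error 0.25, 95% interval from -1.01 to 0.05), and it did not pass the test on deposited TPM (adjusted p = 0.111, limma). Neither member passed it, while 133 of the 217 tested entries, or 61.3%, did. miR-26b passed as lower in goats with each of the 3 other scalings tried, with log2 fold changes of -0.39 when scaled to the listed miRNAs (adjusted p = 0.0432, limma), -0.57 when scaled to them without miR-148a (adjusted p = 0.00698, limma) and -0.56 when scaled by median of ratios (adjusted p = 0.00222, limma). Under these scalings 71%, 70% and 70.5% of the tested entries passed. miR-26a passed with none of them, and its log2 fold change ran from -0.02 to 0.16.

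**Figure D1:**
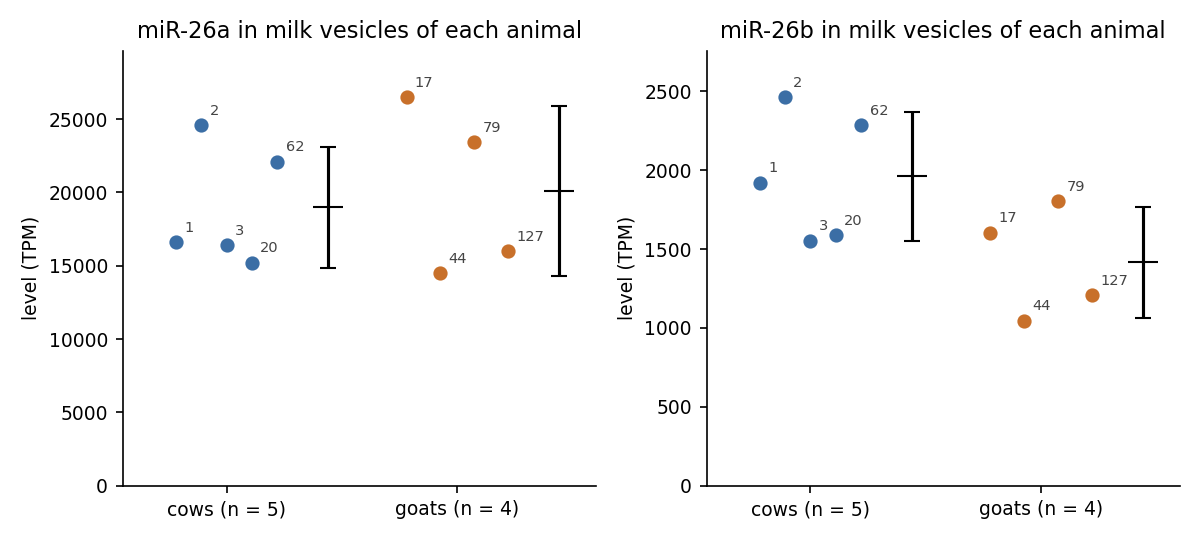
Level in TPM (linear axes from 0) of miR-26a and miR-26b in each animal, labelled by its number, with the mean and SD of each species as a bar beside the points. miR-26a overlaps almost fully between species, while 2 of 4 goats lie below every cow for miR-26b.

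**Figure D2:**
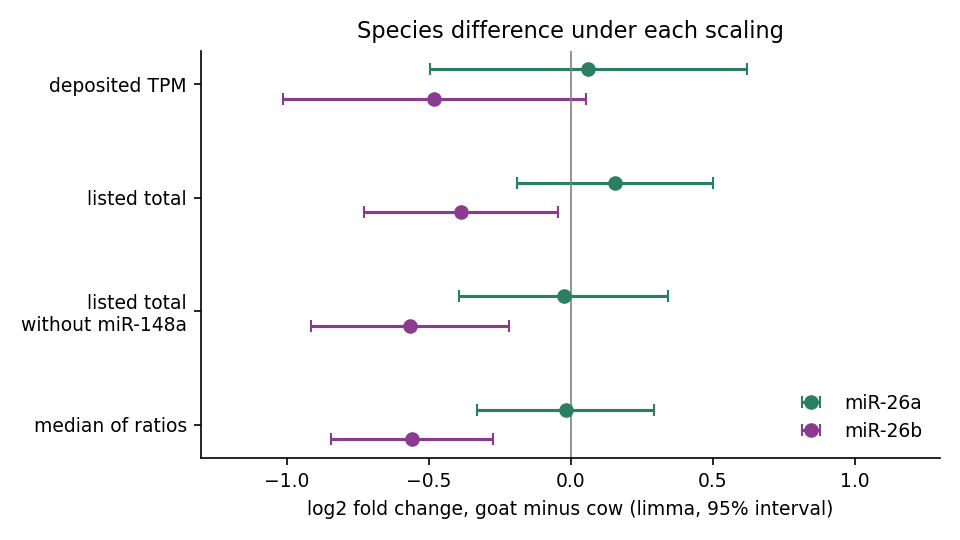
Log2 fold change (goat minus cow) with its 95% interval from limma for each member, on deposited TPM and under 3 other scalings. The interval of miR-26a includes 0 in all 4 rows, and that of miR-26b lies below 0 in all but the first.

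The listed entries of a library added up to between 239233 and 420029 TPM, that is 23.9% to 42.0% of the scale to which TPM refer. The authors report mean reads by species, but the reads behind each library are unknown. No 2 libraries held identical values. The sum of epithelial markers (6 of 7 listed) ran from 26830 to 45365 TPM in goats and from 30424 to 43532 TPM in cows. Of the 6 tested, 1 passed as higher in goats and 1 as lower. The sum of leukocyte markers (6 of 6 listed) ran from 383 to 1151 TPM in goats and from 13 to 48 TPM in cows, and all 5 tested passed as higher in goats. Endothelial and stromal markers (3 of 6 listed) summed to 217 to 425 TPM in goats against 19 to 30 TPM in cows, and 1 of the 2 tested passed as higher in goats. Of all tested entries 61.3% passed in either direction. Neural markers (1 of 3 listed) came to 2 to 35 TPM in goats and 0 to 4 TPM in cows. The listed markers of liver, muscle and erythroid cells reached at most 12, 2 and 37 TPM. The share of these cell types in the values of miR-26a and miR-26b was not tested. Libraries were made from a fixed amount of RNA and TPM are relative within a library. The values therefore measure neither the number of vesicles nor the amount of miRNA per vesicle.

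Expressed as a share of the listed TPM, miR-26a took 6.52%, 5.68%, 6.33% and 6.68% in goats 17, 44, 79 and 127. Its share was 3.96%, 6.005%, 5.86%, 5.68% and 7.23% in cows 1, 2, 3, 20 and 62. Cow 1 was the lowest and cow 62 the highest of all animals, with the 4 goats in between. The means were 5.75 ± 1.17% in cows (SD, n = 5) and 6.30 ± 0.44% in goats (SD, n = 4), a difference within the spread of the animals (p = 0.484, two-sided exact permutation test). In goats the coefficient of variation of miR-26a was 28.8% on TPM and 6.97% on shares. Among the 155 entries above 0 in all 9 animals, only 5 had a smaller coefficient on shares in goats, where the median was 24.1%. In cows the coefficient of miR-26a was 21.7% on TPM and 20.4% on shares, and the latter equalled the median of these entries. The coefficient of miR-26b was 24.7% on TPM and 12.2% on shares in goats, and 20.8% and 17.7% in cows, so that miR-26b varied less than miR-26a in all but the shares of goats. These spreads are given as a description, without a test.

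For miR-26b the share was 0.395%, 0.411%, 0.488% and 0.505% in goats 17, 44, 79 and 127. It was 0.457%, 0.602%, 0.554%, 0.594% and 0.747% in cows 1, 2, 3, 20 and 62. All cows except cow 1 were above all goats. The means were 0.591 ± 0.105% in cows (SD, n = 5) and 0.449 ± 0.055% in goats (SD, n = 4), with p = 0.0476 in a two-sided exact permutation test and 0.0595 after adjustment over the 5 comparisons of this kind, so that it did not pass. Without cow 1 it passed (difference -0.175 percentage points, adjusted p = 0.0357, exact permutation test). That outcome was fixed in advance, because all other cows were above all goats. The 8 runs that left out any other animal did not pass (adjusted p up to 0.134, same exact test). As a percentage of the listed TPM without miR-148a the difference passed (-0.304 percentage points, adjusted p = 0.0298, same exact test). Both members together took 6.34 ± 1.27% of the listed TPM in cows (SD, n = 5) and 6.75 ± 0.47% of it in goats (SD, n = 4).

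The ratio of miR-26a to miR-26b, which does not depend on the scaling of a library, separated the species. It was 16.5, 13.8, 12.97 and 13.2 in goats 17, 44, 79 and 127. In cows 1, 2, 3, 20 and 62 it was 8.65, 9.98, 10.6, 9.56 and 9.68. Every goat was above every cow, as in one direction or the other for 54.9% of the 11935 pairs among the 155 entries above 0 in all animals, with a gap of 2.41 between the lowest goat (79) and the highest cow (3). The means were 9.69 ± 0.70 in cows (SD, n = 5) and 14.1 ± 1.63 in goats (SD, n = 4). On the log2 scale the difference was 0.54, a ratio 1.46 times higher in goats (two-sided exact permutation test, p = 0.00794, the smallest it can give; 0.0132 adjusted over 5 comparisons). Put as a share, miR-26b made up 5.71% to 7.16% of both members in goats and 8.64% to 10.4% in cows. Goat 17 had the highest ratio, and without it the goat ratio was 1.38 times that of cows, the lowest value reached with any animal left out.

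**Figure D3:**
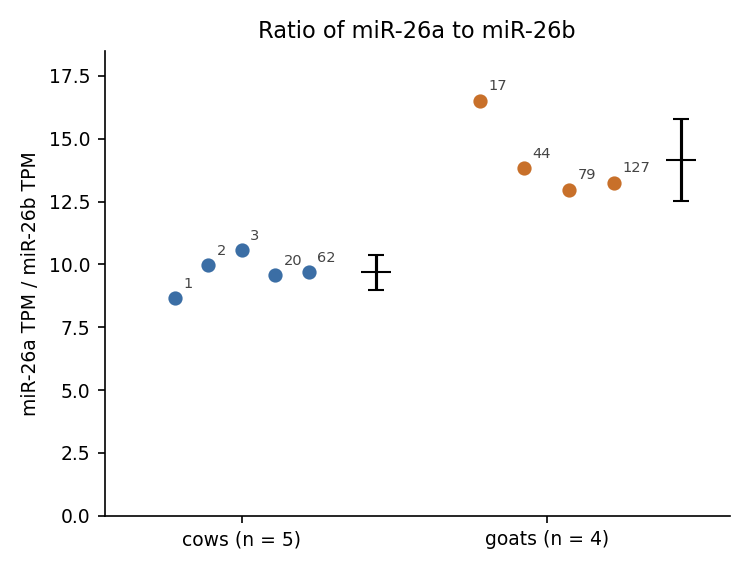
Ratio of miR-26a TPM to miR-26b TPM in each animal (linear axis from 0), labelled by animal number, with the mean and SD of each species as a bar beside the points. The 4 goats lie between 12.97 and 16.5 and the 5 cows between 8.65 and 10.6, with no overlap.

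Such a separation was thus common among pairs of miRNAs in these data. It was found for 53.9% of the 102 pairs with the same bases 2 to 8, and for 65% of the 20 pairs of equal length with at most 2 mismatches. The species difference of the miR-26 pair was also moderate, since 10 of the other 19 near-identical pairs had a larger one. The ratio varied little within species. The SD of the log2 ratio of miR-26a to miR-26b within species was 0.13, against a median of 0.53 over all pairs, and 30 of the other 11934 pairs had a smaller one. Among the 102 pairs with the same bases 2 to 8 the median was 0.31, and 3 had a smaller SD. Among the 20 near-identical pairs the median was 0.26, and only miR-148a to miR-148b was lower (0.11). The SDs of let-7a-5p to let-7b (0.13) and let-7f to let-7g (0.14) were similar, so a steady ratio was not particular to miR-26. Of all 154 possible partners of miR-26b, miR-26a varied least with respect to it within species. For miR-26a, miR-26b held place 3 by this measure, after miR-22-3p and miR-345-3p. The values share their libraries and are no independent replicates. Whether tags of the more abundant miR-26a were counted on miR-26b, and whether both goat sequences equal the bovine ones, was not tested.

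**Figure D4:**
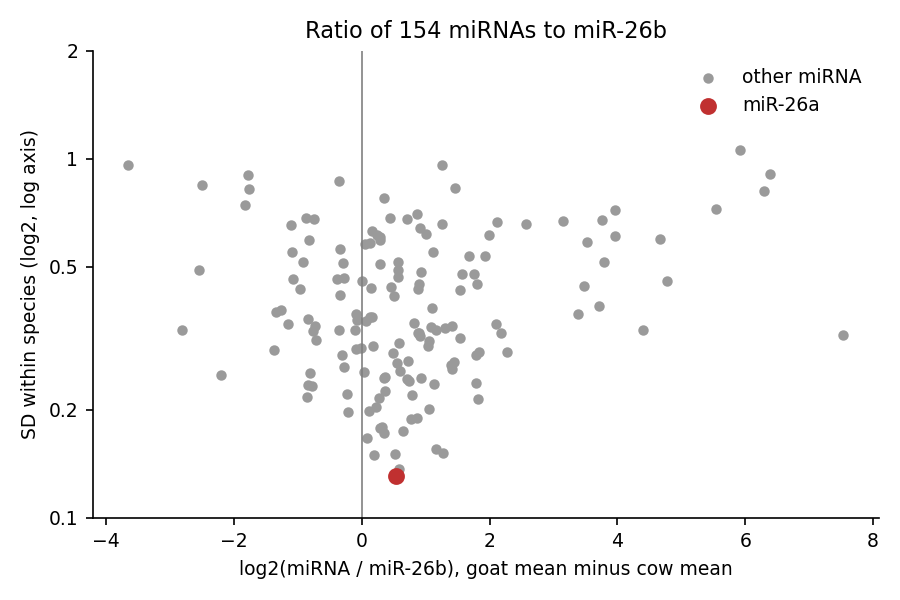
Each point is 1 of 154 miRNAs, with the goat minus cow difference of its log2 ratio to miR-26b on the x axis and the SD of that ratio within species on the y axis (log2 units, log axis). miR-26a lies lowest, at an SD of 0.13, and 0.54 to the right of 0.

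When all 9 animals were taken as 1 set, other miRNAs followed each member more closely than they followed each other. Likeness was measured as the SD over 9 libraries of the log2 ratio of an entry to the member. Between miR-26a and miR-26b this SD was 0.31, which put either one at place 21 of 154 for the other, with a median of 0.62 to 0.63 over all entries. The entries most like miR-26a were miR-30e-5p (SD 0.13), miR-22-3p (0.15), miR-429 (0.17), miR-29a (0.18) and miR-151-5p (0.18). miR-30e-5p, of the miR-30 family, stayed between 4.69% and 6.10% of the TPM of miR-26a in all animals, at 1038 ± 261 TPM in cows (SD, n = 5) and 1059 ± 237 TPM in goats (SD, n = 4). miR-429 belongs to the miR-200 family, which maintains epithelial identity, and was present at 222 ± 43.1 TPM in cows and 250 ± 51.3 TPM in goats. Those most like miR-26b were miR-30a-5p (SD 0.16), miR-362-5p (0.17), miR-374a (0.20), miR-340 (0.21) and miR-200a (0.22). The level of miR-30a-5p lay between 1002% and 1373% of that of miR-26b in every animal. None of the entries most like miR-26a was among those most like miR-26b.

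The rank of miR-26a was higher in goats than in cows, and that of miR-26b was lower. Ranks were taken within a library, with 1 for the most abundant entry. miR-26a ranked 3, 3, 3 and 2 in goats 17, 44, 79 and 127, and 5, 4, 4, 4 and 4 in cows 1, 2, 3, 20 and 62. Its mean rank was 4.20 ± 0.45 in cows (SD, n = 5) and 2.75 ± 0.50 in goats (SD, n = 4). Every goat had a higher place than every cow (two-sided exact permutation test, p = 0.00794, 0.0132 adjusted over 5 comparisons). Ranks did not overlap between species for 47.2% of the 36 entries of highest mean. By medians the difference was 1 place and did not pass (p = 0.524, two-sided exact permutation test). Over all 9 animals its rank moved by 3 places. Among the 10 entries of best mean rank, only miR-148a, at rank 1 throughout, moved less, miR-30a-5p also moved by 3 places, and the others moved by 4 to 7. Moves in places are not comparable between the top and the middle of the order and are no measure of how much a level varied.

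miR-26b ranked 28, 30, 27 and 27 in goats 17, 44, 79 and 127, and 23, 19, 19, 20 and 17 in cows 1, 2, 3, 20 and 62. It stood lower in the order of every goat than of any cow, with mean ranks of 19.6 ± 2.19 in cows (SD, n = 5) and 28.0 ± 1.41 in goats (SD, n = 4), a difference of 8.4 places (two-sided exact permutation test, p = 0.00794, 0.0132 adjusted over 5 comparisons). By medians the difference was 8.5 places (adjusted p = 0.0595, same exact test), which did not pass. The ranks of 62.7% of all tested entries did not overlap between species. Its rank moved by 13 places over all animals, by 3 within goats and by 6 within cows. Of the 20 entries nearest to it in mean rank, 13 moved less, 2 equally and 5 more, with a median of 11.5 places.

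**Figure D5:**
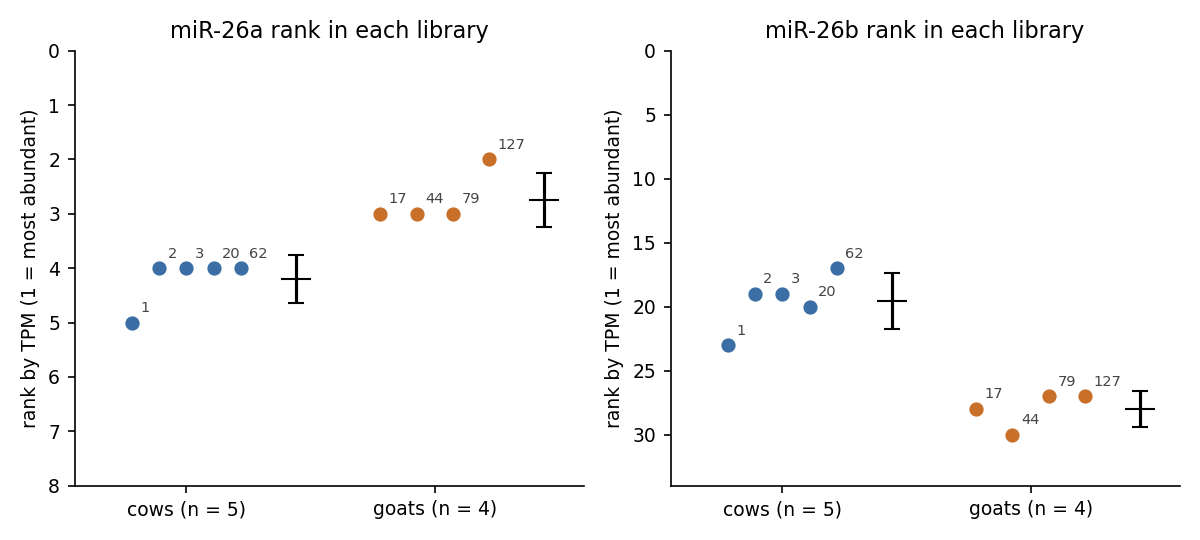
Rank by TPM of miR-26a and miR-26b in each library (1 at the top), labelled by animal number, with the mean and SD of each species. miR-26a stays within ranks 2 to 5, higher in goats, while miR-26b lies at ranks 27 to 30 in goats and 17 to 23 in cows.

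Neighbours in the order of mean levels were compared within animals, where the smallest two-sided p of an exact sign test is 0.125 with 4 goats and 0.0625 with 5 cows, so that no order could pass. In goats miR-21-5p, abundant in secretory epithelium and immune cells, came above miR-26a at 32004 ± 17064 TPM (SD, n = 4), but goat 127 had the reverse order, with miR-21-5p at 10333 TPM. In cows let-7a-5p, a let-7 miRNA that restrains proliferation, came below miR-26a at 17518 ± 5530 TPM (SD, n = 5), and only cow 1, at 25416 TPM of let-7a-5p, had the reverse order. miR-30a-5p, which stood next to miR-26a in both orders, was higher in all 5 cows, by 0.21 ± 0.26 on the log2 scale (SD, n = 5), and lower in all 4 goats, at -0.24 ± 0.10 (SD, n = 4). The mean log2 difference of let-7a-5p from miR-26a in cows was -0.14 ± 0.46 (SD, n = 5), smaller than its spread. miR-26b was not separable from miR-320a in either species, since miR-320a was higher in 2 of 4 goats and 3 of 5 cows. In cows the same held for miR-191, higher than miR-26b in 3 of 5. In goats miR-30e-5p followed miR-26b and was lower in all 4. Relative to miR-148a, the most abundant miRNA, miR-26a stood at 20.0% to 26.5% in goats and 10.9% to 21.4% in cows, and only cow 62 was within the range of the goats. miR-26b stood at 1.25% to 2.04% of miR-148a in goats and 1.26% to 2.21% in cows. The log2 fold change of miR-148a itself was -0.50 on deposited TPM and did not pass (adjusted p = 0.139, limma). Under the 3 other scalings it ran from -0.58 to -0.40 and passed each time (adjusted p from 0.00690 to 0.0139, limma). The log2 fold change of miR-26a on deposited TPM was 0.06. These percentages therefore do not show a higher level of miR-26a in goats.

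Other miRNAs linked to the same pathways gave no common direction. Of 14 miRNAs from families known to target EZH2 besides miR-26, 10 were tested, and 1 passed as higher in goats, 1 passed as lower and 8 missed the threshold, with a median log2 fold change of -0.11 against 0.24 over all tested entries. The 2 calls compare with 61.3% of all tested entries. All tested members except miR-101 were let-7 miRNAs or their relative miR-98, so the counts describe mainly this 1 family. miR-101 averaged 1567 ± 670 TPM in cows and 1526 ± 373 TPM in goats and did not pass (log2 fold change 0.03, adjusted p = 0.940, limma). The counts depended on the scaling, with 5 of 10 called by median of ratios, 6 when scaled to the listed miRNAs and 6 when miR-148a was left out of that total, beside 70.5%, 71% and 70% of all tested entries. The higher one was let-7i, at 1065 ± 318 TPM in cows (SD, n = 5) and 3823 ± 1556 TPM in goats (SD, n = 4; adjusted p = 1.62e-04, limma). The lower one was let-7b, with means of 9915 ± 2539 TPM in cows and 6061 ± 2207 TPM in goats (adjusted p = 0.0427, limma), a call lost in 5 of 9 runs with an animal left out, with a pseudocount of 0.1, with no filter and in limma without a trend. let-7a-5p, let-7f and let-7g did not pass on deposited TPM (log2 fold changes of -0.47, 0.40 and 0.31). let-7a-5p passed as lower in goats without miR-148a in the total (-0.56, adjusted p = 0.00777, limma) and by median of ratios (-0.55, adjusted p = 0.0229, limma). let-7f passed as higher when scaled to the listed total (0.49, adjusted p = 0.00311, limma) and to that total without miR-148a (0.31, adjusted p = 0.0322, limma), and let-7g when scaled to the listed total (0.40, adjusted p = 0.00362, limma).

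Of 15 miRNAs studied in mammary lipid synthesis, 13 were tested, and 2 passed as higher in goats, 2 passed as lower and 9 missed the threshold. These 4 calls compare with 61.3% of all tested entries, and the median log2 fold change was 0.09 against 0.24 over all of them. Scaled to the listed miRNAs, 7 of the 13 were called, beside 71% of all tested entries. Without miR-148a in that total and by median of ratios 5 were called, beside 70% and 70.5%. miR-148a was added as lower in goats with each of these scalings, and miR-24-3p and miR-23a as higher only when scaled to the listed miRNAs. miR-378 (adjusted p = 3.21e-07, limma) and miR-103 (adjusted p = 0.00545, limma), a regulator of insulin signalling, were higher. miR-103 averaged 966 ± 282 TPM in cows and 1812 ± 330 TPM in goats. miR-27b, which acts on adipogenic transcription, averaged 3250 ± 788 TPM in cows and was lower in goats with 1834 ± 512 TPM (adjusted p = 0.0107, limma), as was the scarce miR-24 entry, with 9.0 TPM in cows and 3.75 TPM in goats (adjusted p = 0.00220, limma). The far more abundant miR-24-3p entry went the other way, with 515 ± 101 TPM in cows and 732 ± 310 TPM in goats. It did not pass on deposited TPM (log2 fold change 0.42, adjusted p = 0.246, limma). miR-200a did not pass (log2 fold change -0.20, adjusted p = 0.471, limma). let-7i, miR-101, miR-103, miR-23a, miR-24 and miR-24-3p were named after their values were seen.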

How the data were processed

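Milk-derived EV small RNA libraries of 5 cows and 4 goats were analysed, grouped by the sample titles. The authors trimmed adapters, mapped reads with the bovine reference and counted tags on miRBase entries. No mapping program or build is named in the sources. Values were deposited as whole-number TPM of the authors (treated as a score), so depth and counting error per library are unknown and no interval for counting error was computed. Gene names were taken from RefSeq (ARS-UCD2.0), without coordinates.

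Levels were transformed as log2(TPM + 1) and compared between species with limma 3.58.1 (R 4.3.3, variance trend), for entries above 1 TPM in at least 4 libraries, and p-values were adjusted by Benjamini-Hochberg over all 217 (threshold 0.05). This scale understates changes of low entries. Ratios, shares and ranks were compared with an exact permutation test, two-sided and enumerating the 126 possible divisions of the animals, adjusted over 5 comparisons, with numpy and scipy in Python 3.11. P-values set the species difference against the variation between animals. Alternatives were other pseudocounts (0.1, 10), filters, scalings and denominators, limma without a trend, and leaving out each animal.

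Named miRNAs were the members, the 5 entries most like each, their neighbours in mean level, miR-148a, and up to 4 abundant entries of each list. Members and lists were chosen with earlier results of these data known. miR-345-3p was named after its value was seen.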

Additional observations from a re-analysis of the deposited data

Results flagged for a closer look

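In 26 sets of values (13 measures in each species), 2 single animals stood far from the rest of their species. Goat 127 held miR-26a at rank 2, while the other 3 goats had it at rank 3. Cow 1 held it at rank 5, while the other 4 cows had it at rank 4. Each differs by 1 place from otherwise equal ranks, and chance marks about 1 set in 20.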

How the results depend on the processing

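The ratio of miR-26a to miR-26b was higher in goats, and passed its exact permutation test, under every alternative tried. This outcome was largely fixed in advance, because every goat was above every cow. Leaving out an animal then gives the smallest possible p again, and the linear ratio keeps the same order. Pseudocounts of up to 10 are small beside levels of at least 1046 TPM. The log2 difference was 0.54 with a pseudocount of 1 or 10, from 0.47 to 0.58 with an animal left out, and 4.46 as a difference of linear ratios. The difference in rank kept its direction and passed with any animal left out, at -1.53 to -1.2 places for miR-26a and 7.73 to 9.25 for miR-26b. Ranks did not overlap between species, so these runs had to pass as well. With medians, at -1 and 8.5 places, the difference in rank did not pass. The level of miR-26a passed under no alternative, and its small log2 fold change turned to -0.02 with median-of-ratios scaling (-0.017) and with scaling to the listed total without miR-148a (-0.024), and ran from -0.086 to 0.21 with an animal left out, being below 0 without cow 20 (-0.011), goat 17 (-0.086) or goat 79 (-0.026). Its share difference turned from 0.56 to -0.24 percentage points as a percentage of the listed TPM without miR-148a, and ran from 0.11 to 0.93 with an animal left out. The log2 fold change of miR-26b kept its direction throughout, ran from -0.61 to -0.35 with an animal left out (adjusted p from 0.0524 to 0.272, limma), and passed at -0.39, -0.57 and -0.56 with the 3 other scalings. Its share difference passed at -0.304 without miR-148a in the total and ran from -0.175 to -0.103 percentage points with an animal left out. It passed in only 1 of these 9 runs, the one without cow 1, where the pass was fixed in advance. The causes were not tested. Limited to entries above 0 in all libraries, 72 of 155 were called in place of 133 of 217. No paired analysis was possible because cows and goats were separate animals, each species from its own farm.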
